A study of Mus musculus with 5 samples.

Results

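In lungs of mice carrying a tumour for 2 weeks, 190 of the 1823 kept cells of 1 sorted, uncultured library were cycling, a share of 10.4% (95% exact Clopper-Pearson interval 9.06 to 11.9). A cell was called cycling when it held at least 1 UMI (unique molecular identifier, a tag that marks 1 captured RNA molecule) of at least 4 of 12 mitotic genes. The 12 genes were Mki67, Top2a, Birc5, Cdk1, Ccna2, Ccnb1, Ccnb2, Cenpf, Ube2c, Nusap1, Tpx2 and Cdc20. Kept cells had at least 200 detected genes and under 5% of their UMIs from mitochondrial genes, and 16530 cells of the whole series passed both limits. The cycling cells were compared with the 1035 cells of the same library that held a UMI of none of the 12 genes, called non-cycling here for short. The remaining 598 cells held 1 to 3 of the genes and are given between these sets. All intervals below cover counting error only. The share of background RNA in the UMIs of a cell was not estimated.

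Group 2 innate lymphoid cells (ILC2s) are tissue lymphocytes without an antigen receptor that answer the alarmins IL-33, IL-25 and TSLP. Their fate is set by the transcription factors GATA3 and RORα, and their main products are IL-5, IL-13, IL-9, GM-CSF and amphiregulin. ILC2s in the lung can divide in place when alarmins or IL-2 family cytokines reach them. A dividing cell copies its DNA in S phase and separates the copies in mitosis, and different genes are switched on for each of these steps.

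The series held 5 single-cell RNA libraries of ILC2s sorted from lungs of female wild-type C57BL/6 mice aged 4 to 8 weeks, as live CD45+ lineage-negative ST2+ CD127+ Thy1.2+ cells. The naïve library came from mice without a tumour. The tumour-associated libraries came from mice that had received TC1 lung tumour cells under the skin of the flank 2 or 3 weeks earlier. At each time, 1 library was sorted and loaded directly (ta-non-activated) and 1 was first cultured for 7 days with IL-2, IL-33 and TSLP at 10 ng/mL each (ta-activated). Cells of 5 mice were pooled for each group and each group was 1 library, so no comparison below has a replicate and none was tested. The tumour grew under the skin and the cells came from the lung, so the series does not sample ILC2s within a tumour.

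The library of week 2 ta-non-activated cells held 33324823 UMIs over 1853 barcodes, with a median of 16090 UMIs in a kept cell. This library stood apart from the other uncultured ones in its cytokine RNA. Levels are given as CPM, the UMIs of a gene per 1000000 UMIs summed over all cells of a set. Over all its kept cells, Il13 was at 8861 CPM in week 2 ta-non-activated cells, against 55.6 CPM in naïve and 19.6 CPM in week 3 ta-non-activated cells. Il9 was at 12576 CPM in the same library, against 0.0926 CPM in naïve cells and 0 UMIs in week 3 ta-non-activated cells. Il1rl1, which encodes the IL-33 receptor ST2 used in the sort, was at 56.3 CPM, against 791 CPM in naïve and 82.9 CPM in week 3 ta-non-activated cells. The cells described here were thus taken from a library with high cytokine RNA as a whole. Its label as non-activated was taken as given, and whether that label is right was not tested. Each contrast below between uncultured and cultured cells rests on that label. Il13 was at 3501 CPM in week 2 and 4318 CPM in week 3 ta-activated cells. Ifitm3, an interferon-induced gene, was at 12.1 CPM in non-cycling cells of this library, against 877 CPM and 630 CPM in those of the ta-activated libraries. At most 3 kept barcodes were shared with any other library, and none of the shared barcodes belonged to a cycling cell.

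Cells fell off steeply over the first genes of the rule and then gathered again at its end. There were 405 cells with 1 of the 12 genes, 141 with 2 and 52 with 3. Within the cycling cells, 33 held exactly 4 genes, 10 held exactly 7 and 38 held all 12. The 190 cells therefore covered a range, with 77 cells at 4 to 6 genes, 39 at 7 to 9 and 74 at 10 to 12.

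**Figure D1:**
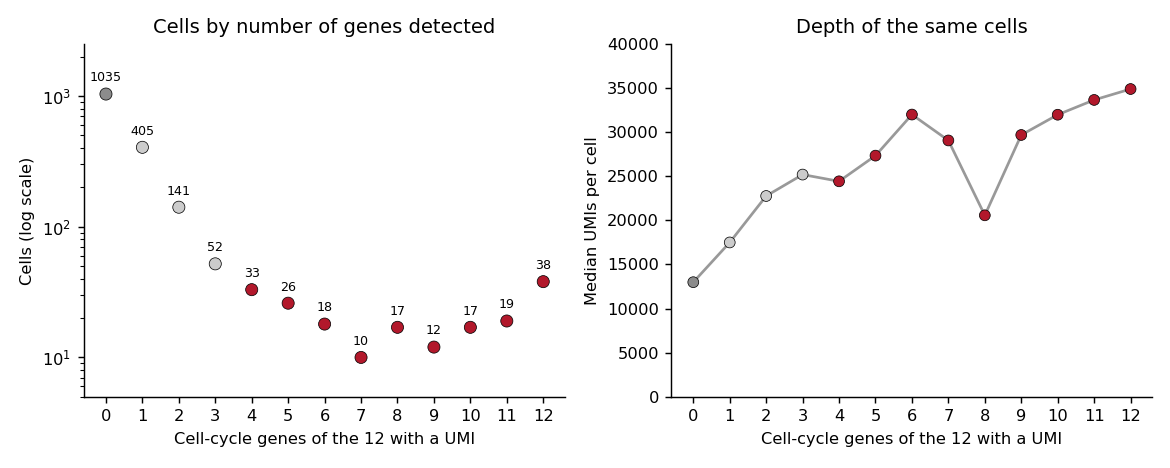
Kept cells of the week 2 ta-non-activated library by the number of the 12 cell-cycle genes with a UMI: the number of cells on a log axis (left) and their median UMIs per cell (right). Dark grey marks cells with none of the genes, light grey 1 to 3 and red the cycling cells, which run from 33 cells at 4 genes to 38 cells at 12.

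Cycling cells carried more RNA tags than the rest. Their median was 29279 UMIs (lowest 7334, highest 153692) and 4816 genes, against 12992 UMIs (lowest 509, highest 51046) and 3048 genes in non-cycling cells. Cells with 1 to 3 genes lay between, at a median of 19388 UMIs. A deeper cell has more chances to show a UMI of each rule gene, so depth enters the rule itself. When every cell was thinned to 5000 UMIs and the rule applied again, 94 of 1746 cells were cycling (5.38%, interval 4.37 to 6.55), and 77 cells were too shallow to enter. For the cells chosen before thinning, the median number of genes at 5000 UMIs was 1901.5 in the 190 cycling and 1772 in 970 non-cycling cells. The mitochondrial share was near equal, at medians of 1.66% and 1.73%. A UMI total of 60000 or more was reached by 12 cycling cells, 8 cells with 1 to 3 genes and none of the non-cycling cells. No doublet caller was run, and the part of doublets in the results was not tested.

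The 12 genes chose the cells and their levels are a description. Top2a, which untangles DNA before the chromosomes part, was at 347 CPM in cycling cells (Poisson interval 333 to 362). Ube2c, an enzyme of the complex that ends mitosis, was at 245 CPM. Birc5, an inhibitor of cell death that also sits on the mitotic spindle, was at 216 CPM and Mki67, the Ki-67 proliferation antigen, at 195 CPM. Cdk1, the kinase that starts mitosis, was at 146 CPM. All 12 genes had UMIs in cycling cells, and the sum over them grew from 348 CPM at 4 to 6 genes to 3104 CPM at 10 to 12 genes.

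Many genes of this kind carry short letters near their start that are known to hold their promoters silent outside of division. The stretches below are the 100 bases just before the RefSeq start of 4 of the rule genes, chosen because they hold these letters, and read on the strand of the gene in GRCm38.p6. Capitals mark the cell-cycle homology letters TTTGAA (or TTCAAA on the other strand) and the CCAAT letters (or ATTGG on the other strand), which the activator NF-Y is known to bind, and no 2 of the marked runs overlap. Top2a lies at chr11:99024190-99024289 on the minus strand, Cdk1 at chr10:69352913-69353012 on the minus strand, Ube2c at chr2:164769829-164769928 on the plus strand and Cdc20 at chr4:118437344-118437443 on the minus strand.
Top2a: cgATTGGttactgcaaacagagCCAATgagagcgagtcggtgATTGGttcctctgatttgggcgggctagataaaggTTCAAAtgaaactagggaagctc
Cdk1: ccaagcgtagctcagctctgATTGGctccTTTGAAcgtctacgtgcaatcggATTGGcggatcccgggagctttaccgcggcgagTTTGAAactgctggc
Ube2c: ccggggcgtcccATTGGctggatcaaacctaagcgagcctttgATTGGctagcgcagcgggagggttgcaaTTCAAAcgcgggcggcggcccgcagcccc
Cdc20: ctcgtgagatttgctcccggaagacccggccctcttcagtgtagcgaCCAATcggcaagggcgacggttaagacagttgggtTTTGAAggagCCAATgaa

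In these stretches the nearest homology letters began 23 bases before the start of Top2a, 15 before Cdk1, 29 before Ube2c and 18 before Cdc20. RefSeq promoters of 300 bases (250 before and 50 after the start) were found for 10 of the 12 rule genes. TTTGAA or TTCAAA was present in 7 of these 10 promoters (70%), against 5878 of all 32851 promoters (17.9%). The letters were also in 37 of 48 promoters of the mitosis and spindle list described below (77.1%) and in 3 of 35 promoters of the DNA replication list (8.57%). CCAAT or ATTGG was present in 8 of the 10 promoters (80%), in 72.9% of the mitosis and 57.1% of the replication promoters, and in 37.4% of all. A match describes letters in a window and is not a mapped binding site.

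A gene was compared when it reached 20 CPM in the set where it was higher, and was called higher or lower when the ratio of CPM between cycling and non-cycling cells was at least 2-fold, that is 1 on the log2 scale. Of 5247 genes compared, 296 were higher (5.64%) and 43 were lower (0.82%) in cycling cells, and the median log2 ratio over all of them was 0.08. Because the same cells were chosen by 12 of these genes, the counts are given beside those shares and nothing is read from them. Against the 255 non-cycling cells nearest in depth (those at or above the 10th percentile of UMIs of cycling cells, called cells of like depth below, though their median of 21650 UMIs was still lower) 302 genes were higher and 22 lower. Of the genes called higher in the comparison with all non-cycling cells, 103 belonged to lists of cell-cycle genes and 193 did not. Of the genes called lower, 5 were in these lists and 38 were not.

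**Figure D2:**
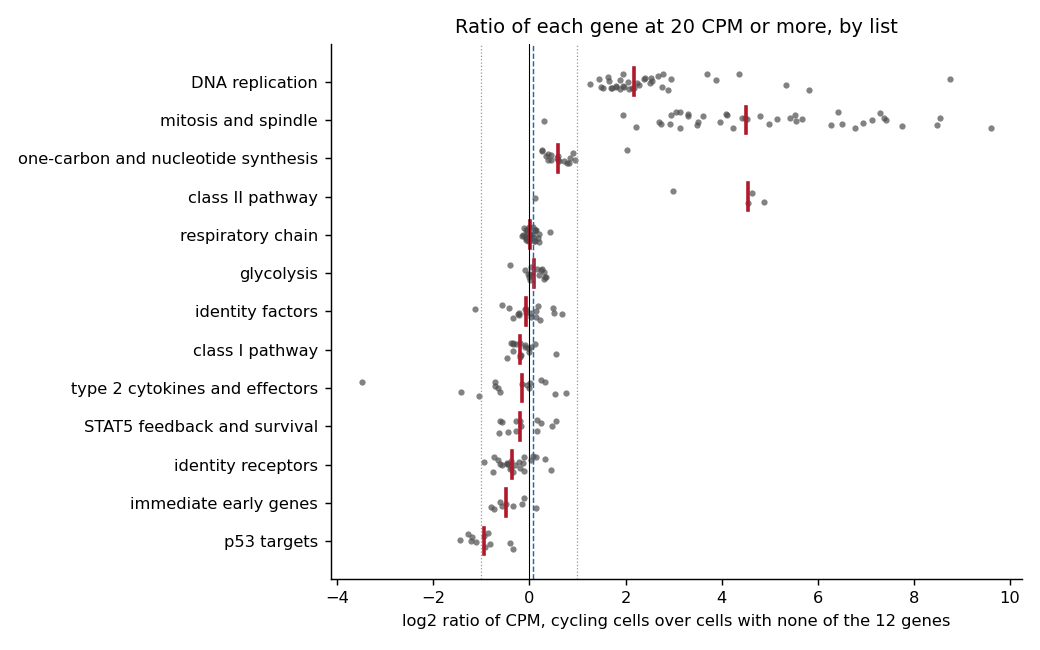
The log2 ratio of CPM in cycling over non-cycling cells for each gene at 20 CPM or more, by list. Points are genes, red bars list medians, the blue dashed line the median of all 5247 genes (0.08) and dotted lines a 2-fold ratio; the replication, mitosis and class II lists stand to the right, and the p53 targets to the left.

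Genes that copy DNA were higher throughout. All 37 genes of the DNA replication list were called higher, beside 5.64% higher and 0.82% lower over all genes. Their median log2 ratio was 2.18, and their summed level was 1183 CPM in non-cycling and 5503 CPM in cycling cells. Mcm7, a subunit of the helicase that opens DNA, was at 169 CPM (159 to 179) in cycling and 40.9 CPM (37.7 to 44.3) in non-cycling cells. Pcna, the ring that holds the DNA polymerase to its template, was at 109 CPM and 33.5 CPM (log2 ratio 1.70). Rrm2, which makes the deoxynucleotides, was at 257 CPM and 6.38 CPM (log2 ratio 5.33). Pclaf, which binds Pcna, was at 450 CPM and 1.04 CPM (log2 ratio 8.76). Mcm7 and Pcna were thus above 20 CPM in non-cycling cells too, while Rrm2 and Pclaf reached that level in the cycling set alone.

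Of the 52 genes of the mitosis and spindle list, 42 reached the level for comparison. Beside 5.64% higher and 0.82% lower over all genes, 41 of these were called higher, with a median log2 ratio of 4.51. Many of them reached 20 CPM in the cycling set alone, which raises such a median. With 20 CPM asked over all kept cells it was 2.73, beside 2.06 for the replication list. Aurkb, the kinase of the chromosomal passenger complex, was at 58.2 CPM in cycling and 0.416 CPM in non-cycling cells. Kif11, the motor that pushes the spindle poles apart, was at 54.0 CPM and 0.0693 CPM. Cks1b, a small partner of the cyclin-dependent kinases, was at 255 CPM and 38.3 CPM. The exception was Bub3, a checkpoint protein, at 165 CPM and 134 CPM (log2 ratio 0.30). Outside the lists, further genes of division led the order of genes at 50 CPM or more. Esco2, which acts on cohesion, was at 53.2 CPM against 0.208 CPM, and Fbxo5 at 84.1 CPM against 2.15 CPM. Stmn1, which takes microtubules apart, was at 750 CPM in cycling and 29.6 CPM in non-cycling cells, and the chromatin protein gene Hmgb2 at 1055 CPM and 59.7 CPM.

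Levels were also read by the number of rule genes in a cell. The summed level of the replication list was 4603 CPM in cells with 4 to 6 of the rule genes, 6073 CPM with 7 to 9 and 6040 CPM with 10 to 12. The summed mitosis list was 1175, 2046 and 4866 CPM in the same 3 sets. These sets are counts of mitotic genes, so the order of the mitosis sums follows from the way the sets were made and is no finding. Cdc6, which loads the helicase before S phase, was highest in the middle, at 60.7 CPM, 92.0 CPM and 43.9 CPM. Aurkb was at 8.86 CPM, 37.8 CPM and 111 CPM. Linker histone gene Hist1h1b, whose RNA is made during DNA copying, was at 16.9 CPM, 58.3 CPM and 492 CPM, against 3.12 CPM in non-cycling cells. Of 8 compared genes of the replication histone list, 4 were called higher and 1, Hist1h2bc, lower, beside 5.64% and 0.82% over all genes. Most histone RNA of this kind ends without a poly(A) tail, and the chemistry captures tailed RNA, so these histone levels are partial.

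**Figure D3:**
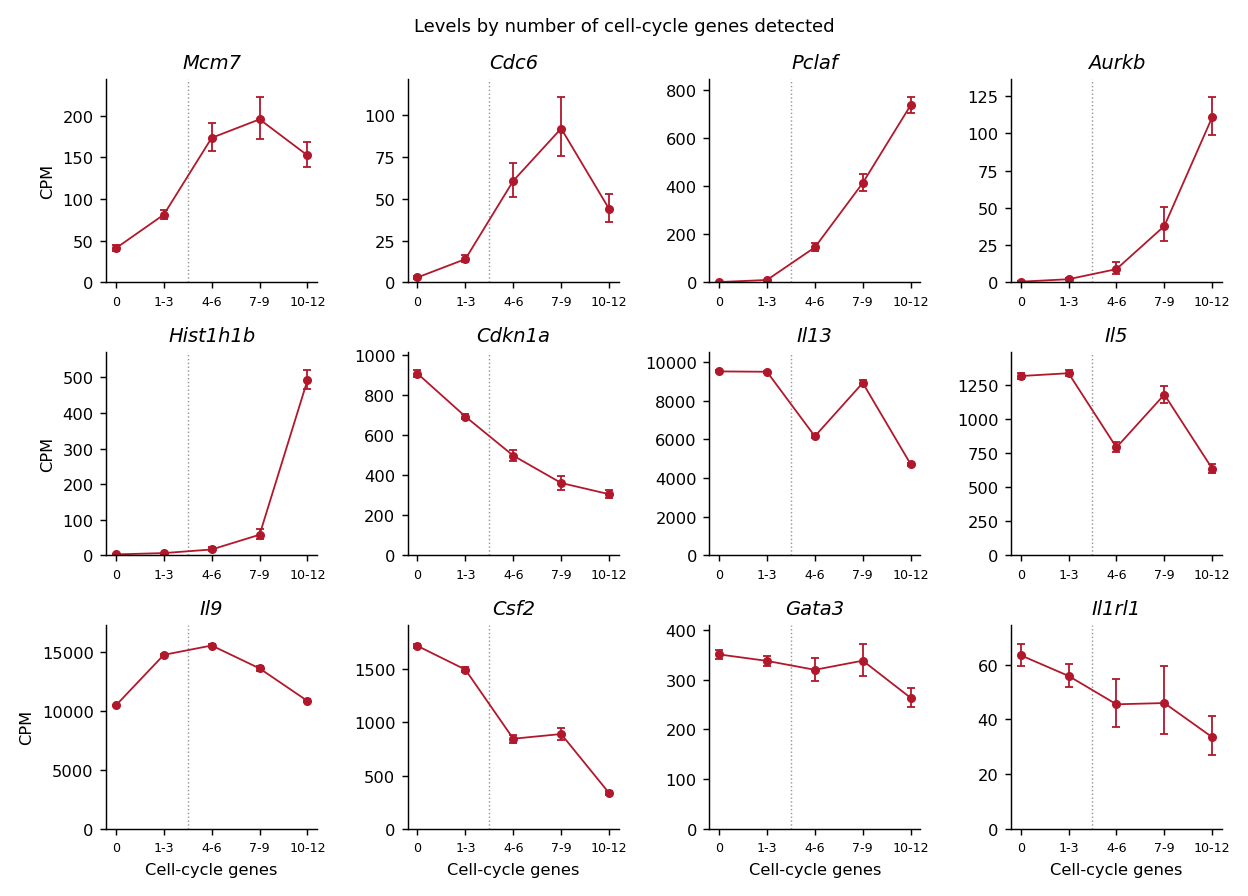
Level in CPM of 12 genes in cells of the week 2 ta-non-activated library with 0, 1 to 3, 4 to 6, 7 to 9 or 10 to 12 of the rule genes. Bars are 95% Poisson intervals and the dotted line is the rule's limit; Hist1h1b stays under 60 CPM up to 9 genes and stands at 492 CPM at 10 to 12, while Cdkn1a is lower at each step, from 909 to 306 CPM.

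At the limit of the rule, the 33 cells with exactly 4 genes lay next to the 52 cells with exactly 3. Their median UMIs were 24430 and 25194. Mcm7 was at 184 CPM in the former and 127 CPM in the latter, and Pclaf at 107 CPM and 43.4 CPM. Il13 was at 5227 CPM and 8462 CPM. These values show a graded edge for the replication genes, with cells just outside the rule well above the 40.9 CPM of Mcm7 in non-cycling cells.

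Among genes that start or brake the cycle, 9 of 21 compared genes were called higher and 4 lower, beside 5.64% and 0.82% over all genes. The G1 cyclin genes were close in both sets, with Ccnd2 at 431 CPM in cycling and 401 CPM in non-cycling cells and Ccnd3 at 198 CPM and 153 CPM. The cyclin E genes Ccne1 and Ccne2, which act at the start of S phase, were higher, at 63.9 CPM against 4.09 CPM and 41.6 CPM against 1.39 CPM. E2f1, a factor that turns on replication genes, was higher at 47.5 CPM against 4.65 CPM. Myc, which drives growth, was at 116 CPM and 121 CPM (log2 ratio −0.06, interval −0.19 to 0.06). The genes called lower were Cdkn1a, Btg1, Btg2 and Klf4, all of which are known to restrain division. Cdkn1a, which encodes the kinase inhibitor p21, was at 390 CPM (375 to 406) in cycling and 909 CPM (893 to 925) in non-cycling cells, and Btg1 at 150 CPM and 324 CPM. Against non-cycling cells of like depth the log2 ratio of Btg1 was −0.42 in place of −1.11 and it was no longer called, while that of Cdkn1a ran from −1.78 to −1.08 over the 14 other settings tried. In the median cell Cdkn1a took 2.43 of 10000 UMIs in cycling and 4.94 in non-cycling cells.

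Cdkn1a is also a target of the DNA damage factor p53, and a list of other p53 targets was drawn up after the values had been seen. Of its 11 compared genes, 5 were called lower and none higher (0.82% and 5.64% over all genes), and the summed level was 2743 CPM in non-cycling cells and 1580 CPM in cycling cells. Phlda3, which restrains the kinase AKT, was at 51.2 CPM in cycling and 124 CPM in non-cycling cells. The cell death genes Bbc3 and Fas were at 17.2 CPM against 46.7 CPM and 34.4 CPM against 74.9 CPM. The call of Fas was lost against cells of like depth, with a log2 ratio of −0.87. Bax, the most abundant gene of the list, was at 662 CPM and 876 CPM (log2 ratio −0.40). Since these genes were gathered for their values, the count describes them and supports no more.

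Type 2 cytokine RNA was detected in cycling cells, at levels near those of non-cycling cells for some genes and below them for others. Of 15 compared genes of the list of type 2 cytokines and effectors, none was called higher, 3 were called lower (Csf2, Il6 and Ccl1) and 12 were within 2-fold, beside 5.64% higher and 0.82% lower over all genes. The median log2 ratio of the list was −0.16. Il13, on chromosome 11 (53631324 to 53634702, minus strand, GENCODE positions on GRCm38), was at 6081 CPM (6020 to 6142) in cycling and 9517 CPM (9467 to 9567) in non-cycling cells, a log2 ratio of −0.65. It was at 6163 CPM with 4 to 6 of the rule genes, 8922 CPM with 7 to 9 and 4721 CPM with 10 to 12, so the level did not move in 1 direction. The median cycling cell gave 40.6 of its 10000 UMIs to Il13 and the median non-cycling cell 40.2, while the upper quartiles were 83.7 and 131 and the lower quartiles 21.3 and 9.52. The quartiles of cycling cells thus lay inside those of non-cycling cells.

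Il5, the eosinophil growth factor gene that like Il13 lies on chromosome 11 (53720794 to 53725106, plus strand), was at 799 CPM in cycling and 1313 CPM in non-cycling cells, a log2 ratio of −0.72. Its medians per cell were 4.59 and 4.35 of 10000 UMIs, so the medians were close and the sum was lower, as for Il13. Areg, the gene of the repair factor amphiregulin, was at 353 CPM and 366 CPM (log2 ratio −0.05, interval −0.13 to 0.02). Furin, a protease that trims precursors of secreted proteins, was at 367 CPM and 606 CPM (log2 ratio −0.72). Il4 stayed under 20 CPM in both sets.

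Csf2, which encodes GM-CSF and lies on chromosome 11 (54247271 to 54249667, minus strand), had the lowest ratio among the genes of the list above 100 CPM. It was at 637 CPM (617 to 657) in cycling and 1721 CPM (1700 to 1743) in non-cycling cells, a log2 ratio of −1.43. Over the 14 other settings tried, the log2 ratio of Csf2 was lowest with cells chosen after thinning to 5000 UMIs, at −2.51. It was nearest to 0 without cells with a class II UMI, at −1.085. The level was 1498 CPM with 1 to 3 rule genes, 847 CPM with 4 to 6, 891 CPM with 7 to 9 and 336 CPM with 10 to 12. Unlike Il13 and Il5, it was also lower in the median cell, at 3.74 against 9.07 of 10000 UMIs. Il6, a cytokine of the acute phase response, was at 52.9 CPM and 109 CPM (log2 ratio −1.04). Its call was lost without cells with genes of the 8 other-type lists described below (−0.89) and without cells with a class II UMI (−0.68). The sign of Il6 turned when the T cell list was used as well (1.47), which removed 176 of the 190 cycling cells. Ccl1, a chemokine gene, was at 2.55 CPM and 28.5 CPM, and 85 of its 411 UMIs in non-cycling cells came from 1 cell. Cxcl2, a neutrophil chemokine gene outside the list, was at 15.3 CPM and 98.0 CPM.

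Il9, on chromosome 13 (56479277 to 56482246, minus strand), was carried by a part of the cells at very high levels. It was at 13141 CPM in cycling and 10453 CPM in non-cycling cells, a log2 ratio of 0.33, and its sign changed in 3 of the 14 other settings tried. Against the 255 deeper non-cycling cells, with a median of 21650 UMIs, the log2 ratio was −0.27, and with cells chosen after thinning it was −0.48. Leaving out cells with genes of another type, the T cell list included, removed 176 of the 190 cycling cells, and the log2 ratio was then −2.28. Without the deepest 10% of cells it was 0.40, and the part of depth alone was not tested. The median cell held 0.675 of 10000 UMIs in cycling and 0.495 in non-cycling cells, and the upper quartiles were 154 and 25.4. Cells that gave at least 100 of 10000 UMIs to Il9 made up 54 of the 190 cycling cells (28.4%, 22.1 to 35.4), 155 of the 598 cells with 1 to 3 rule genes (25.9%, 22.5 to 29.6) and 183 of the 1035 non-cycling cells (17.7%, 15.4 to 20.1). That limit was set after the values had been seen, and 31 cycling cells lay between 50 and 200 of 10000. At the limit that marks the top 10% of the library, 377 of 10000, the shares were near equal, at 19 cycling cells (10.0%, 6.13 to 15.2) and 87 non-cycling cells (8.41%, 6.79 to 10.3).

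RNA of the ILC2 identity factors was detected in cycling cells. Of 19 compared factors, 18 were within 2-fold, as most compared genes were (5.64% higher and 0.82% lower over all genes), and Bhlhe40, an activation-linked repressor, was called lower at 40.5 CPM against 88.1 CPM. That call was lost against cells of like depth (log2 ratio −0.92) and without cells with a class II UMI (−0.84). The call of Bhlhe40 was kept without cells with genes of the 8 other-type lists (−1.18). It was lost when the T cell list was used as well (−0.56), which removed 176 of the 190 cycling cells. Gata3 was at 299 CPM (286 to 313) in cycling and 351 CPM (341 to 361) in non-cycling cells, a log2 ratio of −0.23. Rora was at 134 CPM and 180 CPM (log2 ratio −0.43), and Id2, which blocks the B and T cell fates, at 469 CPM and 546 CPM. Bcl11b, which holds the ILC2 programme, was at 81.0 CPM and 74.0 CPM. UMIs of all 4 factors were therefore found in the cycling cells, with no estimate of background RNA. In the median cell Gata3 took 2.82 of 10000 UMIs against 3.36. Against non-cycling cells of like depth the log2 ratios were −0.095 for Gata3, −0.117 for Rora, 0.102 for Id2 and 0.391 for Bcl11b.

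None of 24 compared receptor genes was called in either direction, near the background of 5.64% and 0.82%, and their median log2 ratio was −0.36, against 0.08 for all genes. Il1rl1 (ST2) was at 40.5 CPM (35.7 to 45.8) in cycling and 63.5 CPM (59.5 to 67.8) in non-cycling cells, a log2 ratio of −0.65. Il7r, the IL-7 and TSLP receptor chain CD127, was at 151 CPM and 185 CPM, and Thy1 at 47.3 CPM and 42.8 CPM. These 3 genes and Ptprc (CD45, log2 ratio −0.12) encode the positive markers of the sort. Il2ra, the high affinity IL-2 receptor chain, was at 330 CPM and 313 CPM. Icos, a costimulatory receptor, was at 448 CPM and 326 CPM (log2 ratio 0.46) and Ccr2, a chemokine receptor, at 43.5 CPM and 84.4 CPM (log2 ratio −0.96). Against non-cycling cells of like depth the log2 ratio of Ccr2 was −0.10 and the median of the receptor list −0.13. S100a4, a calcium-binding protein gene outside the lists, stood just inside 2-fold at 985 CPM and 1944 CPM, with a log2 ratio of −0.57 against cells of like depth.

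Energy metabolism genes are given beside the background of 5.64% higher and 0.82% lower. All 29 respiratory chain genes and all 16 compared glycolysis genes were within 2-fold, with medians of 0.02 and 0.10. All 18 genes of one-carbon and nucleotide synthesis lay above 0, with a median of 0.59, and 1 of them, Shmt1, was called higher at 44.8 CPM against 10.9 CPM. Phgdh, the first enzyme of serine synthesis, was at 239 CPM and 134 CPM. None of 13 compared STAT5 feedback and survival genes and none of 9 compared immediate early genes was called, with medians of −0.20 and −0.49. Ribosomal protein genes took 24.3% of UMIs in cycling and 27.1% in non-cycling cells, with a median log2 ratio of −0.14 over 87 genes.

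Class II pathway genes had higher levels in cycling cells. MHC class II molecules show peptides to CD4 T cells, and ILC2s are known to be able to carry them. Of 14 genes, 5 reached the level for comparison and 4 of these were called higher, with a median log2 ratio of 4.54. The 3 genes of the class II chains among them passed through the cycling set alone, and with 20 CPM asked over all kept cells, which leaves Cd74 and Ctss, the median was 1.555. H2-Ab1, a class II beta chain gene on chromosome 17 (34257689 to 34269419, plus strand), was at 79.4 CPM (72.5 to 86.6) in cycling and 3.19 CPM (2.33 to 4.25) in non-cycling cells, a log2 ratio of 4.64. H2-Aa, the alpha chain gene at 34282744 to 34287823 on the minus strand, was at 51.8 CPM and 2.22 CPM. H2-Eb1, at 34305867 to 34316674 on the plus strand, was at 65.0 CPM and 2.22 CPM. Cd74, the invariant chain that escorts class II, was at 434 CPM and 54.5 CPM (log2 ratio 2.99). The protease gene Ctss was not called, at 58.7 CPM and 54.1 CPM. H2-DMb1, a chain of the peptide exchange factor, was under the limit at 18.0 CPM and 1.53 CPM, and the regulator Ciita at 1.27 CPM and 0.347 CPM. Of 17 compared class I genes none was called, near the background of 5.64% higher and 0.82% lower, and their median log2 ratio was −0.19.

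Class II UMIs sat in a separate set of cells. Over H2-Aa, H2-Ab1 and H2-Eb1 together, 119 of the 190 cycling cells had no UMI, 11 had 1 to 3, 14 had 4 to 7 and 46 had 8 or more. With a limit of 4 UMIs, set after the values had been seen, 60 cycling cells were class II-positive (31.6%, 25.04 to 38.70). Among non-cycling cells 8 of 1035 were positive (0.773%), and among cells with 1 to 3 rule genes 22 of 598 (3.68%). The share was 11.7% at 4 to 6 rule genes, 28.2% at 7 to 9 and 54.1% at 10 to 12. Thinned to 5000 UMIs, 31.6% of cycling and 2.06% of non-cycling cells had at least 1 class II UMI. These are still the cells chosen at full depth, the limit is lower than 4 UMIs, and the part of depth was not tested further. Of all 90 class II-positive cells of the library, 60 were cycling (66.7%, 55.9 to 76.3), and they held 98.3% of the class II UMIs of the cycling cells.

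The 60 class II-positive cycling cells were no deeper than the 119 cycling cells without a class II UMI, with medians of 27606.5 and 30301 UMIs, but held more of the rule genes, with medians of 11 and 6. Cd74 was at 1298 CPM in the positive cells and 37.3 CPM in the others, and the latter value was close to the 36.4 CPM of non-cycling cells without class II UMIs. Cytokine RNA differed between the 2 kinds of cycling cell. Il9 was at 6211 CPM in the positive and 16442 CPM in the negative cells, and Csf2 at 286 CPM and 827 CPM. Il13 was closer, at 5602 CPM and 6365 CPM. Cells with at least 100 of 10000 UMIs of Il9 were 10 of the 60 positive cells (16.7%, 8.29 to 28.5) and 41 of the 119 negative cells (34.5%, 26.0 to 43.7). Gata3 was at 229 CPM and 329 CPM and Il7r at 92.3 CPM and 182 CPM, so UMIs of both were found in the positive cells. Whether the positive cells made this RNA was not tested. Because these cells were split by measured values of the same library, the differences are a description.

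Other genes stood out in the class II-positive cycling cells. Ifitm3, an interferon-induced membrane protein gene, was at 512 CPM in positive and 10.1 CPM in negative cells. Il31, the itch cytokine gene, was at 103 CPM and 1.01 CPM, and 78 of its 203 UMIs in all cycling cells came from 1 cell. Tox2, a nuclear factor gene, was at 56.5 CPM and 2.77 CPM, and the decoy receptor gene Il1r2 at 62.2 CPM and 5.55 CPM. Cd48, an adhesion receptor gene, was at 178 CPM and 30.2 CPM and Icos at 552 CPM and 396 CPM. In the other direction Tph1, the first enzyme of serotonin synthesis, was at 62.2 CPM and 407 CPM, and the immediate early gene Ier3 at 18.7 CPM and 178 CPM.

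Markers of other cell types moved in part with class II. Calls in their lists stand beside 5.64% higher and 0.82% lower over all genes. Of the 8 genes of the B cell list 1 was compared, the antibody light chain gene Igkc, at 26.9 CPM in cycling and 0.555 CPM in non-cycling cells, and 42 of its 169 UMIs in cycling cells came from 1 cell. Igkc was at 71.5 CPM in class II-positive and 7.81 CPM in class II-negative cycling cells. The summed B cell list was 39.7 CPM in cycling and 9.08 CPM in non-cycling cells, while Cd79a and Pax5 were at 0 UMIs in both. Of the 9 dendritic cell genes, Cst3 alone was compared, at 216 CPM and 208 CPM (list sums 236 CPM and 211 CPM), and Itgax, Clec9a, Cd209a and Siglech were at 0 UMIs in cycling cells. Ccr7, a migration receptor gene of the same list that lymphocytes also use, was under 20 CPM, at 18.3 CPM and 1.87 CPM. Of the 14 T cell genes 4 were compared and 1, Cd3g, was called lower, at 19.8 CPM and 49.2 CPM. The most abundant T cell gene was Trbc2, at 250 CPM and 189 CPM, the list summed to 446 CPM and 376 CPM, and Cd4 and Cd8a were at 0 UMIs in cycling cells. Of the 9 epithelial genes Epcam was called lower, at 10.0 CPM and 28.9 CPM. No gene of the lists for natural killer cells, macrophages, granulocytes, mast cells, fibroblasts, endothelial or red cells reached 20 CPM.

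Cells with markers of other types were more frequent among cycling cells. At least 2 genes of 1 of 8 lists (the T cell list not used, since 1282 kept cells held 2 of its genes) were found in 70 of the 190 cycling and 56 of the 1035 non-cycling cells, where a deeper cell has more chances to show them. Dendritic cell genes gave 44 of the former and 29 of the latter, endothelial genes 24 and 19, and B cell genes 14 and 4. Within the cycling cells they were found in 36 of the 60 class II-positive and 30 of the 119 class II-negative cycling cells. When these cells were left out, Cd74 had a log2 ratio of 2.75 and the class II list a median of 4.06. When the T cell list was used as well, 14 cycling and 347 non-cycling cells were left, and Cd74 had a log2 ratio of −0.28. The part of other cell types in the class II values was not tested beyond these figures.

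A gene from outside type 2 biology was also high through few cells. Il22, the cytokine of type 17 lymphocytes, was at 377 CPM in cycling and 97.6 CPM in non-cycling cells, but 1129 of its 2363 UMIs in cycling cells (47.8%) and 608 of its 1408 UMIs in non-cycling cells came from 1 cell in each set. None of the other 14 genes of the type 1 and 17 list, among them Ifng, Il17a and Tbx21, reached 20 CPM.

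The same rule was applied to the other libraries, each against its own non-cycling cells. It found 34 of 6389 naïve cells (0.532%), 177 of 1601 week 3 ta-non-activated cells (11.1%), 770 of 2895 week 2 ta-activated cells (26.6%) and 747 of 3822 week 3 ta-activated cells (19.5%). At 5000 UMIs per cell the shares were 1.002%, 19.6%, 20.7% and 15.1%, beside 5.38% in week 2 ta-non-activated cells. Cells too shallow to enter numbered 3794, 933, 206 and 286 in the same order, beside 77 in week 2 ta-non-activated cells. The thinned shares therefore describe the deeper cells of each library. The week 3 ta-non-activated cycling cells carried the T cell genes Cd3d at 527 CPM and Trdc at 295 CPM, and are not set beside the others. Library, week and culture cannot be told apart in these shares, since each group was 1 library.

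Receptor genes of the sort went both ways across the 4 libraries compared. The log2 ratio of Il7r was −0.292 in week 2 ta-non-activated cells, −1.005 in naïve cells, −1.204 in week 2 and −1.327 in week 3 ta-activated cells. That of Il1rl1 was −0.65, −1.40, −1.24 and −1.70 in the same order, while that of Thy1 was above 0 in all 4, at 0.14, 0.16, 0.53 and 0.84. The Thy1 interval included 0 in week 2 ta-non-activated cells (−0.06 to 0.35) and in naïve cells (−0.09 to 0.41). Il2ra was at 0.08, −0.68, 0.34 and 0.05, and Icos at 0.46, 0.23, −0.54 and −0.39. Gata3 was below 0 in all 4, at −0.23, −0.26, −0.40 and −0.48. Csf2 was below 0 in all 4, at −1.43, −0.90, −0.66 and −0.61, and Btg1 at −1.11, −1.04, −1.48 and −1.26. Cdkn1a, in contrast, was at −1.22 in week 2 ta-non-activated cells, 0.24 in naïve cells, −0.10 in week 2 and 0.87 in week 3 ta-activated cells. Il13 was at −0.65, 1.17, −0.73 and 0.05, where the naïve ratio rested on 34 cycling cells and 116 CPM. Cycling cells were deeper than non-cycling cells in all 4 libraries. A comparison with cells of like depth is given for week 2 ta-non-activated cells alone. There the log2 ratios were −0.095 for Gata3, −0.144 for Il7r, −0.355 for Il1rl1, −0.419 for Btg1 and −1.415 for Csf2. The part of depth in the ratios of the other libraries was not tested.

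Class II genes had higher ratios in naïve and week 2 ta-non-activated cells than after culture. Cd74 had log2 ratios of 2.99 in week 2 ta-non-activated, 3.61 in naïve, 0.28 in week 2 ta-activated and 0.45 in week 3 ta-activated cells. H2-Aa was still called higher after culture at week 2, with a log2 ratio of 1.02 (0.74 to 1.31), where H2-Eb1 had 0.78 and H2-Ab1 0.61. After culture at week 3, H2-Ab1 was equal in both sets at 25.2 CPM, and H2-Aa and H2-Eb1 were under 1 CPM in both. In week 3 ta-non-activated cells, set apart above for their T cell genes, Cd74 had 3 UMIs in cycling and 120 in non-cycling cells, and 0 of 177 cycling cells were class II-positive (exact Clopper-Pearson upper limit 2.06%). Class II-positive cells made up 60 of 190 (31.6%), 8 of 34 (23.5%, 10.7 to 41.2), 103 of 770 (13.4%, 11.1 to 16.0) and 46 of 747 (6.16%, 4.54 to 8.13) of the cycling cells in the same order. The same shares among non-cycling cells were 0.773%, 0.666%, 3.37% and 1.32%. The limit of 4 UMIs was the same for sets of unlike depth. Median UMIs were 29279, 12937.5, 25770.5 and 23152 in cycling cells, in the same order. In non-cycling cells they were 12992, 4435.5, 8313 and 9445. The part of depth in these shares was not tested. The type 1 gene Tbx21 was at 47.2 CPM in the 34 naïve cycling cells, against 8.35 CPM in naïve non-cycling cells. Its log2 ratio was 2.50 (1.80 to 3.13). Igkc was at 8.58 CPM against 0.0699 CPM in the same sets, from 4 and 2 UMIs. The T cell genes Cd3d and Trdc were not higher there, at 36.5 CPM against 45.6 CPM and 12.9 CPM against 40.0 CPM. The part of other cell types in the naïve class II values was not tested. The log2 ratio of Ifitm3 was 3.82 in week 2 ta-non-activated cells and 0.32, 0.03 and 0.19 in the others, with a naïve interval from −0.74 to 1.22. These values stand side by side without a test, since the cells were chosen by the same kind of readout in each library.

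**Figure D4:**
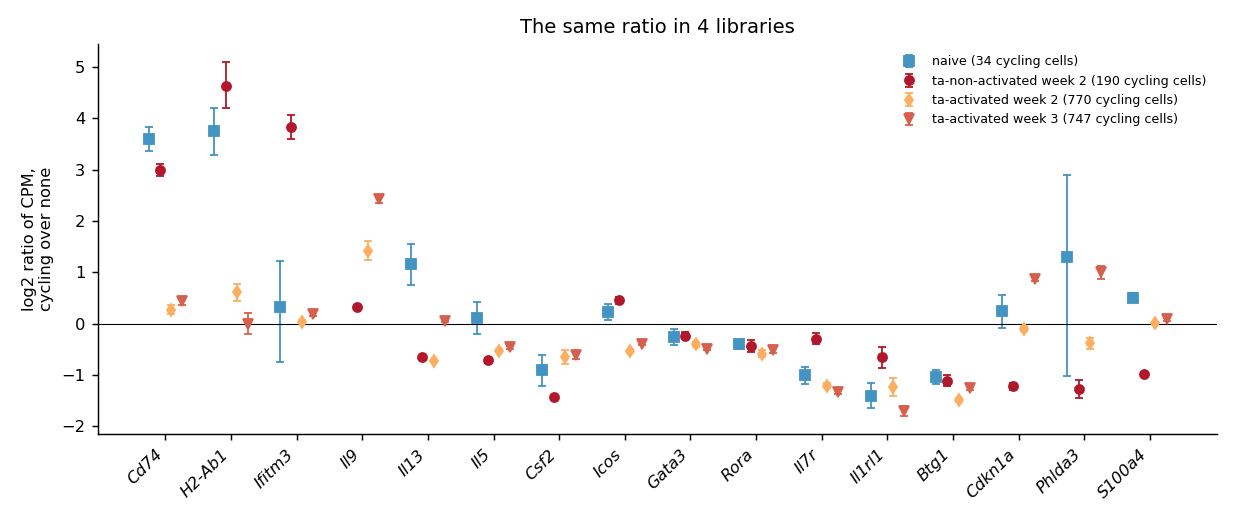
The log2 ratio of CPM in cycling over non-cycling cells for 16 genes in the naïve, week 2 ta-non-activated and both ta-activated libraries, with 95% counting intervals. Cd74 and H2-Ab1 lie above 2.9 in the 2 uncultured libraries drawn and under 0.7 in the cultured ones, and Gata3, Rora, Il7r, Il1rl1 and Btg1 lie below 0 in all 4; no point is drawn for Il9 in naïve cells.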

How the data were processed

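The deposited files were whole-number UMI counts per gene and barcode for each of 5 libraries, made by the authors with Cell Ranger (3.0.2 per the file headers, 6.0.0 for the naïve library). The submitters' processing notes also name Seurat 3 and GRCm38. The naïve features include genes that the other libraries lack, and levels used the 27726 genes common to all files. Barcodes were kept from 200 detected genes up and below 5% of counts from mt- genes. Counts were summed over the cells of a set, and log2 ratios of CPM were given with exact conditional binomial intervals (95%). A count of 0 allows up to 3 UMIs. No test was made, because each group was 1 library and the cells were chosen by the values compared. The members and gene lists were chosen with earlier results of these data known. All genes of the lists could be named, with the 15 largest ratios in each direction among other genes at 50 CPM or more. Genes outside this choice, such as those under other observations apart from Hamp, were picked after their values were seen. The ratio script was tested on simulated counts. Python 3.11.15, numpy 2.4.6, scipy 1.17.1 and pandas 2.3.3 were used. Promoters were taken from RefSeq (GRCm38.p6) and gene positions from GENCODE. No doublets were removed. A few genes are not reported here. Other choices of cells, depth, scaling and level were tried.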

Additional observations from a re-analysis of the deposited data

Results flagged for a closer look

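Ccl1, a chemokine gene, was drawn out because its ratio had opposite signs in uncultured and cultured tumour-associated cells. The log2 ratio of cycling to non-cycling cells was −3.48 for week 2 ta-non-activated cells, 5.61 for those cultured at week 2 and 1.87 for those cultured at week 3. The ratios rested on 16 against 411 UMIs, 787 against 6 UMIs and 3556 against 591 UMIs. The difference between the libraries was not tested, since each was 1 sample.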

How the results depend on the processing

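The share of cycling cells (10.4%) was 5.384% with cells chosen after thinning to 5000 UMIs, 7.186% with at least 6 of the 12 genes and 6.402% without the deepest 10% of cells. It was 2.761% without cells with 2 or more genes of another cell type, and 7.326% when the T cell list was not used for that. The count of genes higher in cycling cells (296) was 451 without cells with genes of another type, 584 at 5 CPM or more, 64 at 100 CPM or more and 129 at 20 CPM or more over all kept cells. The count of genes lower (43) was 71 after thinning, 22 against non-cycling cells of like depth, 78 with the mean over cells, 68 without the deepest 10%, 267 without cells with genes of another type, 108 at 5 CPM or more and 9 at 100 CPM or more. The class II median (4.54) was −0.003 without cells with genes of another type, where 14 cycling and 347 non-cycling cells were left, and −0.06 without cells with a class II UMI. In the former setting Il6 had a log2 ratio of 1.474, Cd74 −0.281 and Ifitm3 −1.401. The cause of these moves was not tested. With at least 8 class II UMIs, 24.211% of cycling cells were class II-positive. Over the 14 settings, Il13 ran from −0.98 to −0.43, Csf2 from −2.51 to −1.08, Cdkn1a from −1.78 to −1.08 and Gata3 from −0.44 to −0.01. Il9 ran from −2.28 to 0.64 and changed sign in 3 settings, Areg in 3, Id2 in 2, Il2ra in 6 and Il7r in 1. The settings with 20 CPM over all kept cells, without the T cell list, with 8 class II UMIs and without class II cells were chosen after seeing the data. No paired analysis was possible because each group was 1 library.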

Other observations

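The genes below, apart from Hamp, are single genes picked out after their values were seen, with no list behind them. Fabp5, a fatty acid carrier gene, was at 792 CPM in cycling and 249.7 CPM in non-cycling cells. Hmgcs1 and Fdps, enzymes that lead to cholesterol, were at 66.1 CPM against 31.7 CPM and at 115 CPM against 52.1 CPM. Other genes of this route that were looked at were inside 2-fold, with log2 ratios of 0.91 for Cyp51, 0.79 for Idi1 and 0.77 for Sqle.

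Dnmt1, which copies DNA methylation onto the new strand, was at 170 CPM and 51.9 CPM, and Ezh2, a writer of repressive histone marks, at 158 CPM and 58.5 CPM. Among genes called lower, Txnip, a brake on glucose uptake, was at 17.1 CPM and 39.7 CPM, and Mxd4, which opposes Myc at shared targets, at 12.9 CPM and 33.7 CPM. Hamp, the gene of the iron hormone hepcidin, was at 46.7 CPM and 139.9 CPM.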
